A study of Mus musculus with 12 samples.

Results

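RNA of the myelin-enriched fraction of mouse brain at 6 months was compared with that at postnatal day 75 (P75), which sets adult beside young adult animals. The comparison takes in 6 of the 12 sequenced samples, 3 at each of these ages, chosen by the age in their labels and by no measured value, and every gene of the deposited table. The series sequenced total RNA of this fraction at 4 ages, P18, P75, 6 months and 24 months, with 3 samples each. All samples were labelled as brain of male wild type mice of the c57Bl6/N strain, so the groups share strain, sex and genotype and differ in the labels by age alone. The fraction is selected as light membrane and not by cell type, so RNA of axons, synapses and other glia can be in it beside that of oligodendrocytes. In such bulk samples fewer cells of a type and less RNA per cell cannot be told apart. The labels do not say whether the 3 samples of an age came from separate animals, litters or pools, so the p-values below measure only the spread between these samples, which may be technical.

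Myelin of the central nervous system is the spiral of membrane that oligodendrocytes wrap around axons, and it is built from myelin basic protein, a few abundant membrane proteins and large amounts of cholesterol and galactolipids. A subset of mRNAs, with Mbp as the textbook case, is carried into the myelin processes and translated there, which is why purified myelin contains RNA. Most myelin in the mouse brain is laid down in the first weeks after birth, and in the adult the sheaths are maintained while the axons inside them continue to signal and to draw on glial metabolism.

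The 12 libraries held between 20299052 and 27214385 reads, recovered as whole numbers from the authors' normalised read counts, and between 16949 and 17261 genes with at least 1 read. Every sample had Xist at or below 1.78 normalised counts and at least 277 for each of Ddx3y, Eif2s3y, Kdm5d and Uty, as the male label has it. Mbp, the myelin basic protein gene, took 7.03%, 5.06% and 4.76% of the reads at P75 and 5.14%, 8.48% and 5.34% at 6 months. In a principal component analysis of the 6 samples compared, the first component held 77.0% of the variance and placed the P75 samples at -30.5, -38.6 and -46.7 and the 6 months samples at 48.0, 35.8 and 32.0. The 2 ages therefore stood apart, with P75 replicate 3 and 6 months replicate 1 farthest from each other. Over all 12 samples the second component (17.3% of the variance) put 6 months (17.2 to 29.2) and P18 (16 to 19.8) on one side and P75 (-37.9 to -21.2) and 24 months (-19.0 to -6.90) on the other.

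Between P75 and 6 months, many synaptic, ion channel, axon guidance and lysosomal genes rose, while most genes for the small proteins of cytosolic ribosomes, mitochondrial ribosomes and the respiratory chain fell. Of the main structural myelin genes, Mbp, Mobp, Cnp and Mog did not pass the test, and Mag rose by 0.51 on the log2 scale. Of 14987 genes tested among 21937 in the table, 7859 (52.4%) passed at an adjusted p under 0.05 (limma on log2 of the normalised count plus 1, two-sided, Benjamini-Hochberg over all genes tested). Of these, 4054 (27.1% of those tested) were higher and 3805 (25.4%) were lower at 6 months. The values of the 2 ages did not overlap for 9343 genes (62.3%), and 7643 genes both passed and did not overlap. Lack of overlap therefore adds little for a gene that passed. Most changes were small: the median size among the genes that passed was 0.59 on the log2 scale, and 1422 of them (18.1%) changed by at least 1, 802 upward and 620 downward. The median log2 difference over all genes tested was 0.003. With so many genes called, a list of genes stands out here by how lopsided its counts are and not by having called members, so each count below is read against 27.1% rising and 25.4% falling.

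Age can also be compared on the other 6 samples of the series, 24 months against P18, which uses none of the libraries compared here though the fit shares its estimate of the spread. There 4801 genes (32%) were higher and 4566 (30.5%) lower at 24 months. Of the genes that rose from P75 to 6 months, 2437 also rose from P18 to 24 months, 60.1% of the first set and 50.8% of the second, and 448 fell, 11.1% and 9.81%. Of the genes that fell from P75 to 6 months, 2181 also fell from P18 to 24 months, 57.3% and 47.8% of the 2 sets, and 318 rose, 8.36% and 6.62%.

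**Figure D1:**
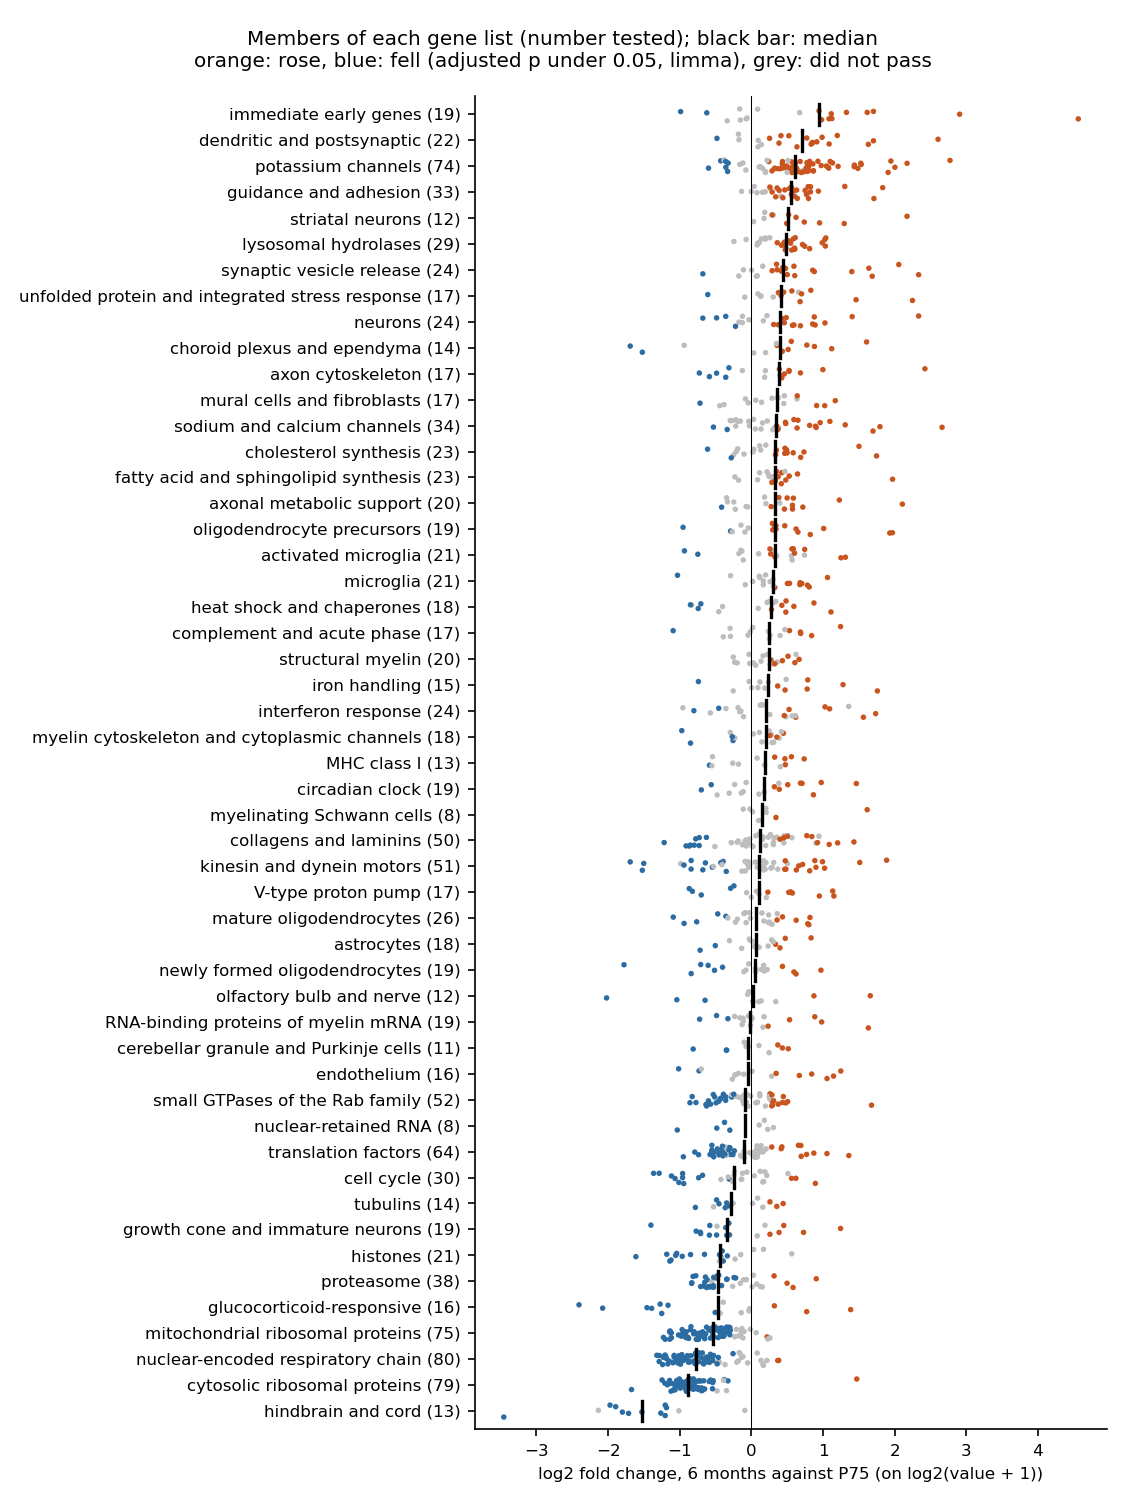
Each point is a gene, placed by its log2 fold change at 6 months against P75 (horizontal axis, on log2 of the normalised count plus 1), with the gene lists as rows and the number of members tested in brackets; black bars are medians, orange and blue points passed the test upward and downward, and grey points did not. Cytosolic ribosomal proteins and the respiratory chain lie almost wholly to the left, with medians of -0.88 and -0.77, and immediate early genes, dendritic genes and potassium channels mostly to the right, with medians of 0.94, 0.71 and 0.62.

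The 12 largest rises among genes with a mean normalised count of at least 50 over the 6 samples, and with no overlap between the ages, were led by neuronal signalling and cell surface genes. Pdyn, the precursor of the dynorphin opioid peptides, stood at 8.02, 1.85 and 5.53 at P75 and 158, 85.2 and 101 at 6 months. It rose by 4.34 ± 0.49 on the log2 scale (limma, adjusted p = 2.99e-06). Unless marked SD, values after ± are the SE of the fit, which uses the spread within all 4 ages, 3 samples at each. All 3 samples at 6 months were far above all 3 at P75, where the gene was close to its limit of detection. Gabbr2, a subunit of the metabotropic GABA-B receptor, went from 131, 108 and 82.9 at P75 to 1522, 1007 and 1056 at 6 months, and rose by 3.46 ± 0.18 (limma, adjusted p = 5.87e-09). For both genes the lowest sample at 6 months was several times the highest at P75.

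Chrm3, the muscarinic acetylcholine receptor M3, was measured at 27.1, 37.1 and 29.9 at P75 and 306, 222 and 221 at 6 months and rose by 2.95 ± 0.24 (adjusted p = 1.84e-07). Ano3, a member of the anoctamin family, counted 57.1, 33.4 and 29.9 at P75 and 437, 269.8 and 295 at 6 months and rose by 3.05 ± 0.28 (adjusted p = 4.84e-07). Egr3, an activity-dependent zinc finger transcription factor, had 19.0, 8.34 and 8.84 at P75 and 103, 84.3 and 86.6 at 6 months and rose by 2.91 ± 0.40 (adjusted p = 2.12e-05). The lowest sample at 6 months again exceeded the highest at P75 by a wide margin in each.

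Of the gamma protocadherins, adhesion molecules of neurons encoded in one cluster, Pcdhgc5 ran from 30.1, 13.9 and 5.53 at P75 to 234, 154 and 179 at 6 months and rose by 3.70 ± 0.43 (adjusted p = 4.4e-06). Its neighbour Pcdhgc3 had 52.1, 54.7 and 44.2 at P75 and 524, 382 and 351 at 6 months and rose by 3.02 ± 0.17 (adjusted p = 7.34e-09). The transcripts of this cluster share their 3′ exons, so the counts of both are uncertain. Dag1, the dystroglycan receptor for laminin, stood at 94.2, 68.6 and 60.8 at P75 and 647, 451 and 477 at 6 months and rose by 2.81 ± 0.18 (adjusted p = 2.33e-08). Ntn4, a netrin of basement membranes, had 15.0, 11.1 and 12.2 at P75 and 118, 80.8 and 85.6 at 6 months and rose by 2.79 ± 0.21 (adjusted p = 8.01e-08). They were 6.99-fold and 6.90-fold higher at 6 months on the log2(value + 1) scale. Pnmal2, of the Pnma family, went from 195, 157 and 87.3 at P75 to 1824, 1279 and 1309 at 6 months and rose by 3.38 ± 0.21 (adjusted p = 2.38e-08). Zbed6, a transposon-derived transcription repressor, counted 28.1, 17.6 and 3.32 at P75 and 163, 113.6 and 140.1 at 6 months and rose by 3.38 ± 0.46 (adjusted p = 1.83e-05). The Zbed6 reading frame lies within another gene, so reads of the 2 could not be told apart here.

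In each of the 12 rises the highest of the 3 samples at 6 months was replicate 1, and without it all 12 still passed, with log2 differences of 2.62 to 4.09. The mean at 24 months lay between those of P75 and 6 months for all 12. Gabbr2 stood at 459.7, 596 and 639 at 24 months, and Pnmal2 at 405, 413 and 492.

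**Figure D2:**
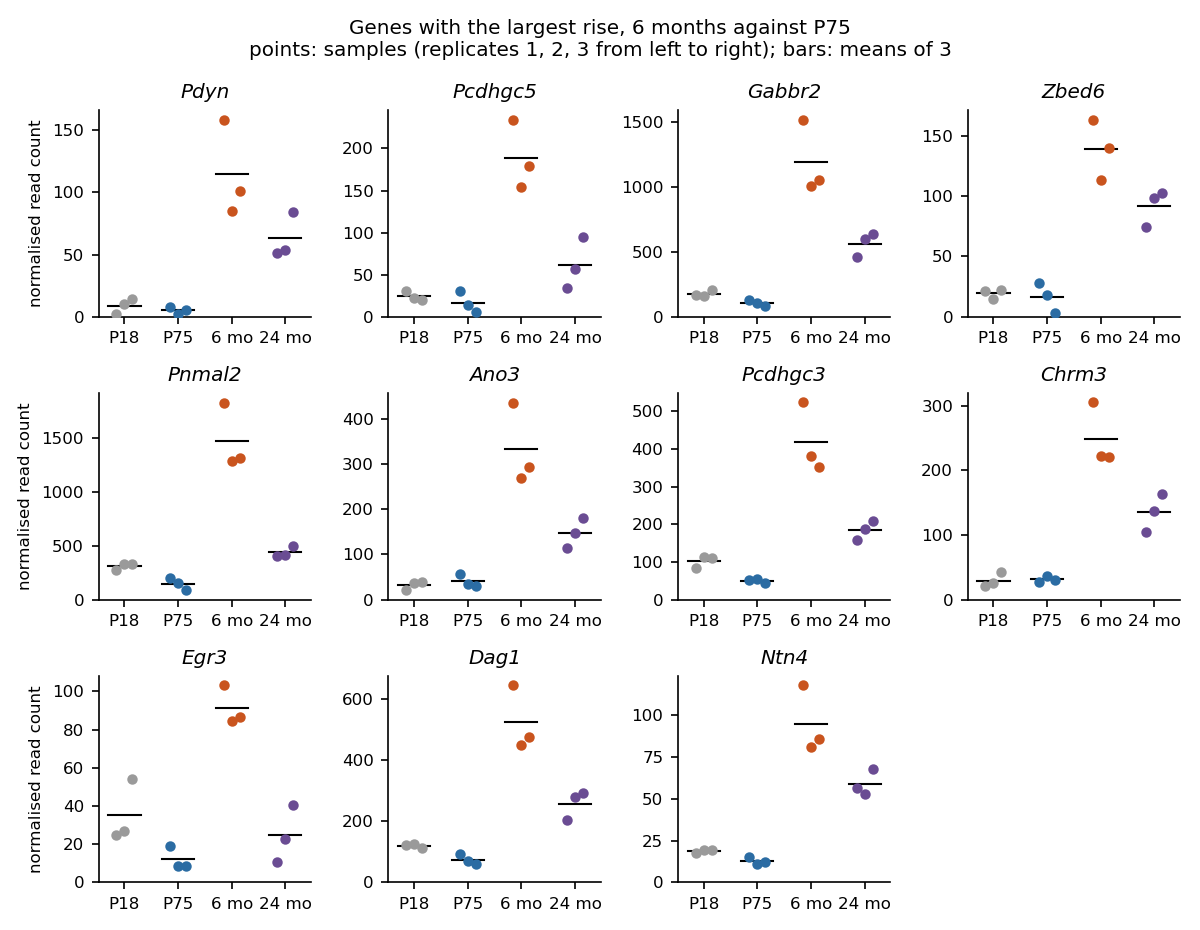
Normalised read count (vertical axis of each panel, starting at 0) of the genes described above with the largest rises, in each sample at P18, P75, 6 months and 24 months; points are samples, replicates 1 to 3 from left to right, and bars are means of 3. In every panel the 3 samples at 6 months lie above the 3 at P75 and replicate 1 is the highest, for Gabbr2 at 1522 against 82.9 to 131.3 at P75. The genes were chosen to have no overlap between these ages.

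The 12 largest falls under the same rule included the metallothioneins Mt1 and Mt2, the Hox genes Hoxa5 and Hoxb5 and several genes of no common pathway. Wdfy1, an endosomal adaptor protein with a FYVE domain, went from 1639, 1620 and 1678 at P75 to 310.4, 305 and 279 at 6 months, a fall of 5.51-fold. Its log2 value fell by 2.46 ± 0.0930 (limma, adjusted p = 1.18e-10), and the samples of each age lay close together. Hif3a, the third alpha subunit of the hypoxia-inducible factors, had 130.3, 134 and 145 at P75 and 27.6, 28.4 and 22.4 at 6 months and fell by 2.35 ± 0.23 (adjusted p = 1.01e-06). Amy1, an amylase, stood at 543, 532 and 564 at P75 and 130, 133 and 173 at 6 months and fell by 1.91 ± 0.20 (adjusted p = 1.91e-06), and other amylase genes share its sequence, so its count is uncertain. That none of the 3 overlapped between the ages follows from the rule by which they were chosen.

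Wibg, a factor that recycles the exon junction complex, was at 1312, 1993 and 1243 at P75 and 336, 444 and 413 at 6 months and fell by 1.90 ± 0.24 (adjusted p = 1.04e-05). Efcab7, an EF-hand protein, had 122, 107 and 154 at P75 and 26.0, 34.6 and 30.2 at 6 months and fell by 2.03 ± 0.19 (adjusted p = 5.78e-07). Adamts16, a secreted metalloprotease, counted 190.4, 154 and 166 at P75 and 43.9, 55.0 and 47.7 at 6 months and fell by 1.78 ± 0.21 (adjusted p = 4.29e-06). These too were lower in every sample at 6 months, as the rule required. Ovgp1, an oviduct glycoprotein by its name, stood at 138, 143 and 137 at P75 and 46.3, 32.8 and 48.7 at 6 months and fell by 1.71 ± 0.21 (adjusted p = 8.54e-06). S100a5, a calcium-binding protein of olfactory sensory neurons, had 811, 584 and 759.5 at P75 and 177, 128 and 234 at 6 months and fell by 2.02 ± 0.58 (adjusted p = 0.00772), and with the trend on transcript length removed it no longer passed (adjusted p = 0.0848). The mean at 24 months lay between the 2 ages for all 12 falls, and Ovgp1 and Amy1 stood near their P75 level in at least 1 sample, at 144, 102 and 105 and 528, 426 and 292.

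The metallothioneins Mt1 and Mt2, small cysteine-rich proteins that bind zinc and copper and are induced by metals and glucocorticoids, had the highest counts among the 12 falls. Mt1 had 15340, 21310 and 21800 at P75 and 3610, 5533 and 4760 at 6 months, a fall of 4.21-fold, and Mt2 had 9643, 14120 and 13440 at P75 and 1872, 2737 and 2396 at 6 months, a fall of 5.30-fold. On the log2 scale Mt1 fell by 2.08 ± 0.18 (adjusted p = 3.74e-07) and Mt2 fell by 2.41 ± 0.19 (adjusted p = 1.23e-07) in limma. Neither overlapped between the ages, as the rule required, and the 24 months samples were intermediate, at 10450, 7553 and 7357 for Mt1. The 2 genes are close in sequence, so reads could be shared between them. Their promoters are shown because both genes are textbook targets of the metal-responsive transcription factor. The windows run from 250 bases before to 50 bases after the RefSeq start, 5′ to 3′ on the plus strand of GRCm38.p6, at chr8:94178839-94179138 for Mt1 and chr8:94172368-94172667 for Mt2, and capitals mark every match on either strand to the core of the metal response element, searched as TGCACNC and TGCGCNC.
Mt1: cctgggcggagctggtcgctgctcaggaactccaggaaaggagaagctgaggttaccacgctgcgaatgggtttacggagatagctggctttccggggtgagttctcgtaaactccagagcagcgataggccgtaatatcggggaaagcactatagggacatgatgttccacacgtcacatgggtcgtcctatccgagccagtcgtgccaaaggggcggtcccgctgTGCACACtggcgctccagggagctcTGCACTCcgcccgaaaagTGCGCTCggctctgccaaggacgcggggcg
Mt2: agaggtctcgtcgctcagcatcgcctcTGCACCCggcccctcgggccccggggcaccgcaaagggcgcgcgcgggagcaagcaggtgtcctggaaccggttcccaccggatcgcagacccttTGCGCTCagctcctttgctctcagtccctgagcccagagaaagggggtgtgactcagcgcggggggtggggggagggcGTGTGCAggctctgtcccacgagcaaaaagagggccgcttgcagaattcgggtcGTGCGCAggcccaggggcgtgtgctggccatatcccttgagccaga
The Mt1 window held 3 matches and the Mt2 window 4. Of 32851 RefSeq promoter windows of this length, 25.7% held at least 1 match and 1.97% at least 3. A match is a description of the letters and not of a bound site.

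**Figure D3:**
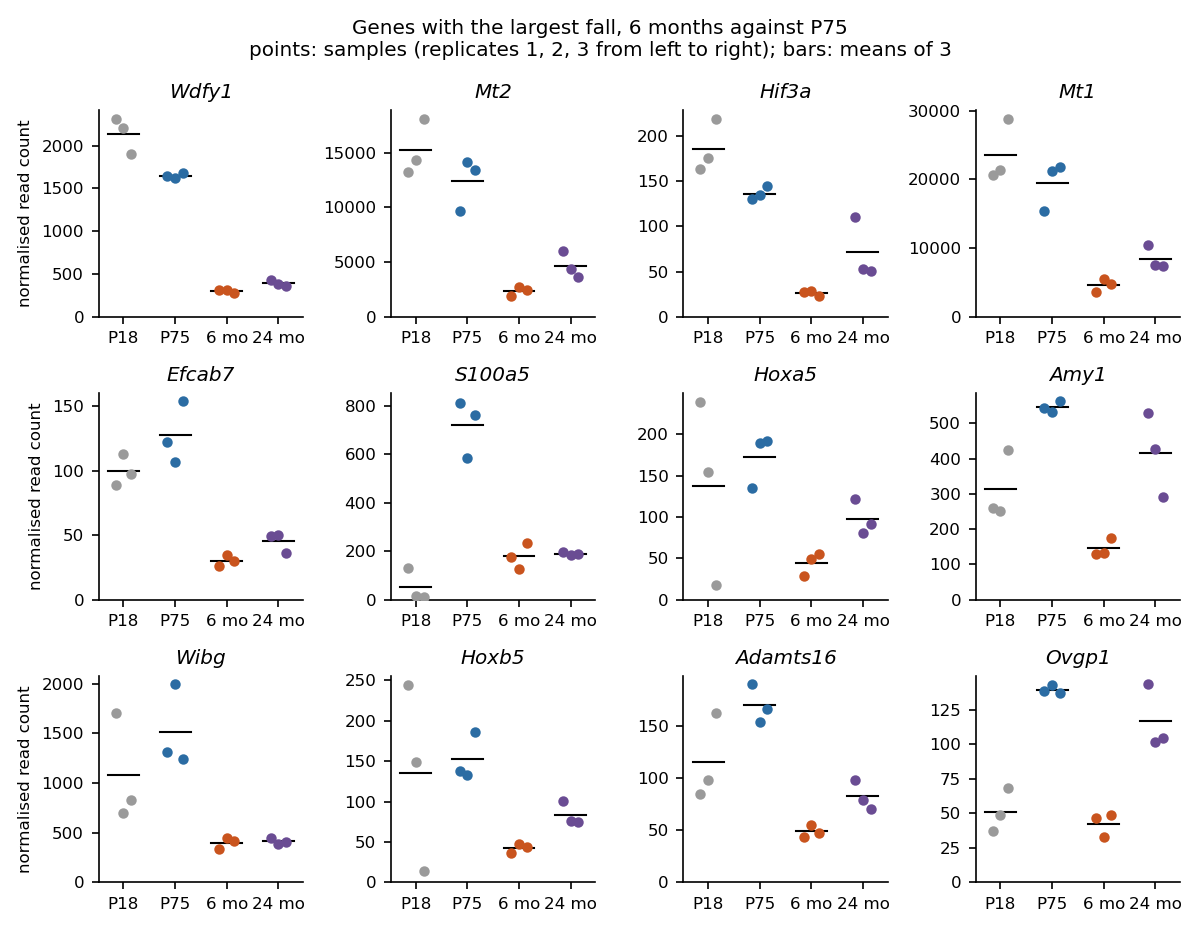
Normalised read count (vertical axis of each panel, starting at 0) of the 12 genes with the largest fall, in each sample at the 4 ages; points are samples, replicates 1 to 3 from left to right, and bars are means of 3. All 3 samples at 6 months lie below all 3 at P75 in every panel, for Wdfy1 at 279.3 to 310.4 against 1620 to 1678, and P18 replicate 3 lies apart for Hoxa5 and Hoxb5. The genes were chosen to have no overlap between P75 and 6 months.

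Of 20 genes of compact myelin and its paranodal junctions, 6 rose, 0 fell and 14 did not pass, with a median log2 difference of 0.24. Mag, the adhesion molecule of the innermost myelin layer, stood at 4570, 4941 and 4863 at P75 and 7090, 7453 and 6025 at 6 months and rose by 0.51 ± 0.12 (adjusted p = 0.00238) in limma. Cntn2, an adhesion molecule beside the node of Ranvier, had 1786, 1865 and 1496 at P75 and 2888, 2779 and 2196 at 6 months and rose by 0.61 ± 0.13 (adjusted p = 0.00078). Jam3, a junctional adhesion molecule of the paranodal loops, had 673, 631 and 722 at P75 and 1093, 1063 and 1060 at 6 months and rose by 0.67 ± 0.14 (adjusted p = 0.00064). The ages did not overlap for these 3. Omg, the oligodendrocyte myelin glycoprotein, had 3435, 3633 and 3801 at P75 and 4868, 4397 and 4377 at 6 months and rose by 0.33 ± 0.0800 (adjusted p = 0.00274). Pllp and Cd9, membrane proteins with several spans named after their values were seen, completed the 6 with log2 rises of 0.43 and 0.27. Leaving P18 replicate 3 out of the fit brought the number that rose to 10.

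Several major myelin genes gave no call. Mobp, which encodes a basic protein of compact myelin, stood at 129200, 72930 and 78400 at P75 and 117100, 185200 and 124700 at 6 months, a log2 difference of 0.62 ± 0.31 (limma, adjusted p = 0.0969). Cnp and Mog differed by 0.28 ± 0.15 (adjusted p = 0.124) and 0.22 ± 0.13 (adjusted p = 0.163). For Mbp the log2 difference was 0.16 with an SE of 0.60, so the spread between samples left changes of this size undetectable. Together the list took 6.93% ± 1.36 of the reads at P75 and 7.91% ± 2.03 at 6 months (SD, n = 3), ranges that overlapped. A p that missed the threshold does not show that these levels were the same.

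Markers of the stages of the oligodendrocyte lineage split. Among 19 genes of oligodendrocyte precursors, 13 rose and 2 fell. Tnr, an extracellular matrix tenascin, had 60.1, 52.9 and 43.1 at P75 and 262, 194 and 169 at 6 months and rose by 1.97 ± 0.18 (adjusted p = 5.92e-07), Xylt1, which starts chondroitin sulfate chains, rose by 1.93 ± 0.29 (adjusted p = 4.66e-05), and Sox6, a transcription factor of the precursor state, rose by 1.01 ± 0.14 (adjusted p = 2.83e-05) (limma). The 2 that fell were transcription factors of the lineage, while Sox10, another such factor, rose. Olig1 stood at 4761, 4993 and 5212 at P75 and 2357, 2857 and 2533 at 6 months and fell by 0.95 ± 0.0910 (adjusted p = 7.54e-07), without overlap, and Olig2, named after its value was seen, had a log2 difference of -0.29 (adjusted p = 0.0355). Pdgfra, the growth factor receptor that defines precursors, named on the same terms, had 0.30 (adjusted p = 0.0177). Of 19 genes of newly formed oligodendrocytes, 4 rose and 6 fell. The transcript 9630013A20Rik fell from 128, 91.8 and 184 at P75 to 34.1, 35.5 and 41.8 at 6 months, while Enpp6, a choline phosphodiesterase that marks cells beginning to myelinate, rose from 83.2, 98.3 and 101 at P75 to 188, 203 and 165 at 6 months; the adjusted p values were 7.5e-06 and 0.000374. Tcf7l2, a transcription factor of differentiating oligodendrocytes, fell by 0.51 ± 0.0790 (adjusted p = 5.78e-05). Gpr17, Sema5a and Mpzl1, named after their values were seen, made up the other rises, at 0.63, 0.59 and 0.44.

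Among 26 genes of mature oligodendrocytes, 6 rose and 5 fell, with a median of 0.07. Without P18 replicate 3 the rises numbered 10, and without 6 months replicate 1 the falls numbered 3. Ptgds, which makes prostaglandin D and is also made by the meninges, stood at 28540, 27880 and 23960 at P75 and 45550, 49450 and 46530 at 6 months and rose by 0.82 ± 0.12 (adjusted p = 3.35e-05). Gpr37, an orphan receptor of mature oligodendrocytes, rose by 0.80 ± 0.17 (adjusted p = 0.000894). Qdpr, a biopterin reductase, stood at 53660, 46630 and 53040 at P75 and 23390, 39060 and 29740 at 6 months and fell by 0.76 ± 0.22 (adjusted p = 0.00851). Nkx6-2 and Ppp1r14a, a homeodomain factor and an inhibitor of myosin phosphatase, fell by 0.94 ± 0.12 (adjusted p = 8.97e-06) and by 1.09 ± 0.19 (adjusted p = 0.000169, limma). Adssl1 and Car2, named after their values were seen, had -0.47 and -0.36. Rises and falls thus stood side by side among genes of the same cells. In the list of myelin cytoskeleton and cytoplasmic channel genes 3 of 18 rose and 4 fell. Leaving out 1 sample gave 1 rise (without 6 months replicate 2) to 7 (without P18 replicate 3), and 2 falls (without replicate 1 of P75, or replicate 1 or 3 of 6 months) to 6 (without P18 replicate 3). Sept8 and Tuba1a, a septin and a tubulin, rose by 0.45 ± 0.13 (adjusted p = 0.00777) and by 0.26 ± 0.0890 (adjusted p = 0.0214), and Tubb4, named after its value was seen, had 0.36. Actb, cytoplasmic actin, went from 34920, 43410 and 35880 at P75 to 19910, 21880 and 21350 at 6 months and Arpc1b, a subunit of the actin-branching complex, from 652, 633 and 746 at P75 to 315, 362 and 357 at 6 months. They fell by 0.85 ± 0.14 (adjusted p = 0.000105) and by 0.97 ± 0.15 (adjusted p = 7.08e-05), and Mtap7 and Sept2, also named after their values were seen, had differences of -0.27 and -0.25.

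Of 19 RNA-binding proteins known to carry or translate myelin mRNA, 5 rose, 3 fell and 11 did not pass, shares no higher than those of all genes; quantile normalization or removal of the length trend gave 5 falls. Hnrnpk, a translational regulator of Mbp mRNA, stood at 5241, 4936 and 5249 at P75 and 10150, 9282 and 9105 at 6 months and rose by 0.89 ± 0.0870 (adjusted p = 9.27e-07). Tnpo2, a nuclear import receptor, rose by 0.53 ± 0.0830 (adjusted p = 6.46e-05). Hnrnpl fell by 0.72 ± 0.0850 (adjusted p = 4.94e-06), and Hnrnpa2b1, the protein that binds the transport signal of Mbp mRNA, was named after its value was seen, at -0.49 (limma, adjusted p = 0.000691). Hnrnpa1, whose many processed copies make its count uncertain, was counted at only 36.1, 23.2 and 22.1 at P75 and 78.0, 90.5 and 84.7 at 6 months and rose by 1.63 ± 0.25 (adjusted p = 4.61e-05). Celf1 and Stau1 among the rises and Ybx1 among the falls, named after their values were seen, had 0.98, 0.23 and -0.33. Of 15 genes of iron handling, 6 rose and 1 fell. Cp, the ferroxidase ceruloplasmin, had 75.2, 63.0 and 60.8 at P75 and 243, 227 and 209 at 6 months and rose by 1.76 ± 0.18 (adjusted p = 1.23e-06), Steap3 and Steap2, metalloreductases, rose by 1.28 ± 0.30 (adjusted p = 0.00217) and by 0.47 ± 0.10 (adjusted p = 0.00124), and Ftl1, ferritin light chain, fell by 0.74 ± 0.14 (adjusted p = 0.000312) from 6296, 5863 and 6581 at P75 to 2998, 4043 and 4306 at 6 months. Fth1, ferritin heavy chain and 1 of the 10 genes with the highest counts, took 2.31%, 1.87% and 2.22% of the reads at P75 and 1.69%, 2.84% and 2.52% at 6 months and did not pass.

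Genes of cholesterol synthesis rose in part. Of 23 tested, 12 rose and 2 fell, with a median of 0.34, and 4 fell with the trend on GC content removed. Hmgcs1 was listed at 0 in every sample, which for an enzyme that most cells make may be a failed estimate in the counting and is not read as absence. Srebf2, the transcription factor that switches the pathway on when sterols run low, stood at 768, 683 and 599 at P75 and 2469, 2287 and 2115 at 6 months, a rise of 3.36-fold. On the log2 scale it rose by 1.75 ± 0.11 (adjusted p = 2e-08) in limma, and no sample at P75 came near those at 6 months. Pmvk, phosphomevalonate kinase, went the other way, at 1649, 1831 and 1853 at P75 and 1027, 1306 and 1170 at 6 months, and fell by 0.61 ± 0.0920 (adjusted p = 4.58e-05), and Acat2, named after its value was seen, had -0.28. The promoter window of Srebf2 is shown because the gene is its own textbook target: it lies at chr15:82147019-82147318, plus strand of GRCm38.p6, RefSeq, and capitals mark the match to the sterol regulatory element, searched as TCACNCCA on both strands.
Srebf2: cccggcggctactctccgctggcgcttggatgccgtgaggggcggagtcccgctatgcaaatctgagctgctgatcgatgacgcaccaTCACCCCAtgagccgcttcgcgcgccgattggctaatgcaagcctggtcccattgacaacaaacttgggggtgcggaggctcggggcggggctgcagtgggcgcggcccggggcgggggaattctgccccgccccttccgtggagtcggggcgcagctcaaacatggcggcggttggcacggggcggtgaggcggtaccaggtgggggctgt
This element was found in 4.36% of all promoter windows and in 2 of the 19 windows of the cholesterol list that RefSeq gave, 10.5%, those of Srebf2 and Hmgcs1.

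Fatty acid and sphingolipid synthesis gave 13 rises and 0 falls among 23 genes, with a median of 0.33. Fads2, the delta-6 desaturase of polyunsaturated fatty acids, stood at 378, 367 and 273 at P75 and 1370, 1444 and 1165 at 6 months and rose by 1.97 ± 0.15 (adjusted p = 1.25e-07). Elovl5, an elongase of the same pathway, had 1909, 1718 and 2074 at P75 and 3112, 2788 and 2998 at 6 months and rose by 0.64 ± 0.13 (adjusted p = 0.000733). Acly and Fasn, which make cytosolic acetyl-CoA and palmitate, had 3160, 3444 and 3607 at P75 and 5064, 4528 and 4660 at 6 months and 3332, 3786 and 3434 at P75 and 4818, 4870 and 4462 at 6 months. They rose by 0.48 ± 0.0830 (adjusted p = 0.000153) and by 0.42 ± 0.0840 (adjusted p = 0.000536, limma). With the trend on transcript length removed the count was 9 up and 1 down.

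The list of axonal metabolic support holds genes of glycolysis, monocarboxylate transport and related metabolism. Some of its members, such as Nat8l, act in neurons, so its counts do not describe glia alone. Of its 20 genes 10 rose and 1, Ldhb, named after its value was seen, fell (-0.41). The falls numbered 3 without P18 replicate 3 and 4 with the trend on GC content removed. Hk1, the hexokinase of brain, stood at 3568, 4380 and 3245 at P75 and 6408, 6173 and 5714 at 6 months and rose by 0.72 ± 0.12 (adjusted p = 8.4e-05). Nat8l, which makes N-acetylaspartate in neurons, rose by 0.59 ± 0.0900 (adjusted p = 5.17e-05). Slc16a7 and Slc16a1, monocarboxylate transporters, had differences of 1.23 (adjusted p = 2.44e-05) and, the latter named after its value was seen, 0.57. Eno1, whose processed copies make its count uncertain, was counted at only 78.2, 60.3 and 32.1 at P75 and 276, 223 and 206 at 6 months and rose by 2.11 ± 0.25 (adjusted p = 4.17e-06).

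Ribosomal protein genes fell as a group. Of 79 cytosolic ribosomal protein genes tested of 83 in the table, 75 fell and 1 rose, with a median of -0.88; with the trend on transcript length removed 45 fell. Together they took 7.39% ± 0.808 of the reads at P75 and 4.19% ± 0.806 at 6 months (SD, n = 3), without overlap. Taken sample by sample, the median difference of the list from the P75 mean was -0.08, -0.11 and 0.17 at P75 and -1.26, -0.69 and -0.66 at 6 months, on the log2 scale. All 3 samples at 6 months were lower and replicate 1 was lowest; without it 68 of the genes fell. Ribosomal protein genes have many processed copies in the genome, so single values are uncertain.

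Rpl35, of the large subunit, stood at 14800, 15630 and 18420 at P75 and 5235, 7926 and 8340 at 6 months and fell by 1.21 ± 0.17 (adjusted p = 2.04e-05) in limma. Rpl27 had 11570, 13030 and 13500 at P75 and 4681, 6990 and 6584 at 6 months and fell by 1.08 ± 0.13 (adjusted p = 7.35e-06). Rpl29 and Rps27l fell by 0.94 ± 0.13 (adjusted p = 1.44e-05) and by 1.25 ± 0.15 (adjusted p = 4.79e-06). The ages did not overlap in any of the 4. Genes of this family commonly start within a run of pyrimidines, and the promoter of Rpl35 is shown for that feature: chr2:39005082-39005381, minus strand of GRCm38.p6, RefSeq, read 5′ to 3′, with capitals on the match to CTTTCC, which lies 5 bases before the start.
Rpl35: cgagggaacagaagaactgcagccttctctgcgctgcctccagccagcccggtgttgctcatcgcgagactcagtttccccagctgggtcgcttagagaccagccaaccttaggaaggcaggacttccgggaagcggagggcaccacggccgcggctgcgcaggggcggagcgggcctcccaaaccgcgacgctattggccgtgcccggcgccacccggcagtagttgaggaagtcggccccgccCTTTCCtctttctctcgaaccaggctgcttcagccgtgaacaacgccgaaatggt
The letters CTTTCC, searched on both strands, were found in 26.6% of all windows and in 36 of 73 windows (49.3%) of the 61 ribosomal protein genes that matched RefSeq. Within 25 bases of the start they were found in 5.23% of all windows and in 19.2% of those of the ribosomal protein genes.

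Respiratory genes fell too. Of 80 nuclear-encoded subunits of the respiratory chain and ATP synthase, 64 fell and 2 rose, with a median of -0.77. Ndufa6, an accessory subunit of complex I, stood at 6179, 6869 and 8312 at P75 and 2348, 2903 and 3321 at 6 months and fell by 1.32 ± 0.12 (adjusted p = 5.65e-07). Ndufa5 and Ndufc1, of the same complex, fell by 1.28 ± 0.13 (adjusted p = 9.69e-07) and by 1.18 ± 0.11 (adjusted p = 4.4e-07), and Uqcrb, of complex III, fell by 1.06 ± 0.10 (adjusted p = 8.1e-07) (limma). The 2 that rose, named after their values were seen, were the catalytic subunits Atp5a1 and Sdha, at 0.38 and 0.37. Among 75 mitochondrial ribosomal proteins 62 fell and 1, Mrpl19 (named after its value was seen, 0.22), rose, with a median of -0.54. Mrps16 had 1204, 1297 and 1342 at P75 and 525, 615 and 635 at 6 months, and Mrpl53 had 1208, 1292 and 1425 at P75 and 524, 566 and 695 at 6 months. They fell by 1.12 ± 0.0870 (adjusted p = 1.27e-07) and by 1.14 ± 0.10 (adjusted p = 4.72e-07).

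The proteasome gave 24 falls and 4 rises among 38 genes. The falls included subunits of the proteolytic core, such as Psma7 at 3956, 4862 and 4924 at P75 and 2244, 2585 and 2879 at 6 months and Psma4 at 4160, 4503 and 4336 at P75 and 2571, 2663 and 2719 at 6 months, which fell by 0.83 ± 0.12 (adjusted p = 2.33e-05) and by 0.71 ± 0.0870 (adjusted p = 7.36e-06). All 4 that rose were non-ATPase subunits of the regulatory cap, Psmd11, which rose by 0.91 ± 0.0860 (adjusted p = 7.24e-07), and Psmd13, Psmd5 and Psmd1, named after their values were seen, at 0.58, 0.50 and 0.32. Of 64 translation factors 10 rose and 26 fell. Eif1b and Eif3k fell by 0.79 ± 0.0960 (adjusted p = 6.03e-06) and by 0.74 ± 0.0970 (adjusted p = 1.3e-05), while Eif4ebp2, a repressor of cap-dependent initiation, rose by 1.36 ± 0.17 (adjusted p = 9.32e-06) and Eif2c2, the argonaute protein of RNA silencing, rose by 1.06 ± 0.14 (adjusted p = 1.73e-05). Of 81 histone genes listed, 21 had values high enough to be tested, and 14 of these fell while none rose. Hist1h2bc stood at 1561, 1728 and 1999 at P75 and 483, 595 and 654 at 6 months and fell by 1.61 ± 0.13 (adjusted p = 1.69e-07); histone genes are near copies of each other, so their counts are uncertain.

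Most of these lists hold short transcripts. The median length was 1094 bases for cytosolic ribosomal and for respiratory chain genes, 1849 for mitochondrial ribosomal proteins, 1880 for histones and 1895 for the proteasome, though 3102 for translation factors, and length moved with the fold change over all genes. In the quintile of genes with the shortest transcripts, 62 to 1996 bases, 10.3% rose, 47.9% fell and the median was -0.355, whereas in the longest quintile 36.0% rose, 14.8% fell and the median was 0.144. For the shortest quintile the median difference from the P75 mean was -0.06, 0.03 and 0.04 at P75 and -0.45, -0.30 and -0.29 at 6 months, -0.17, -0.22 and -0.20 at 24 months and 0.00, -0.01 and 0.03 at P18. The shift was thus present in each sample at 6 months, largest in replicate 1. After removal of the trend on length, 45 cytosolic ribosomal protein genes fell (median -0.42), 43 respiratory chain genes (-0.31), 51 mitochondrial ribosomal protein genes (-0.39) and 15 proteasome genes (-0.22). The cause of the trend was not tested. The median moved less with GC content, from -0.048 to 0.066 over quintiles.

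**Figure D4:**
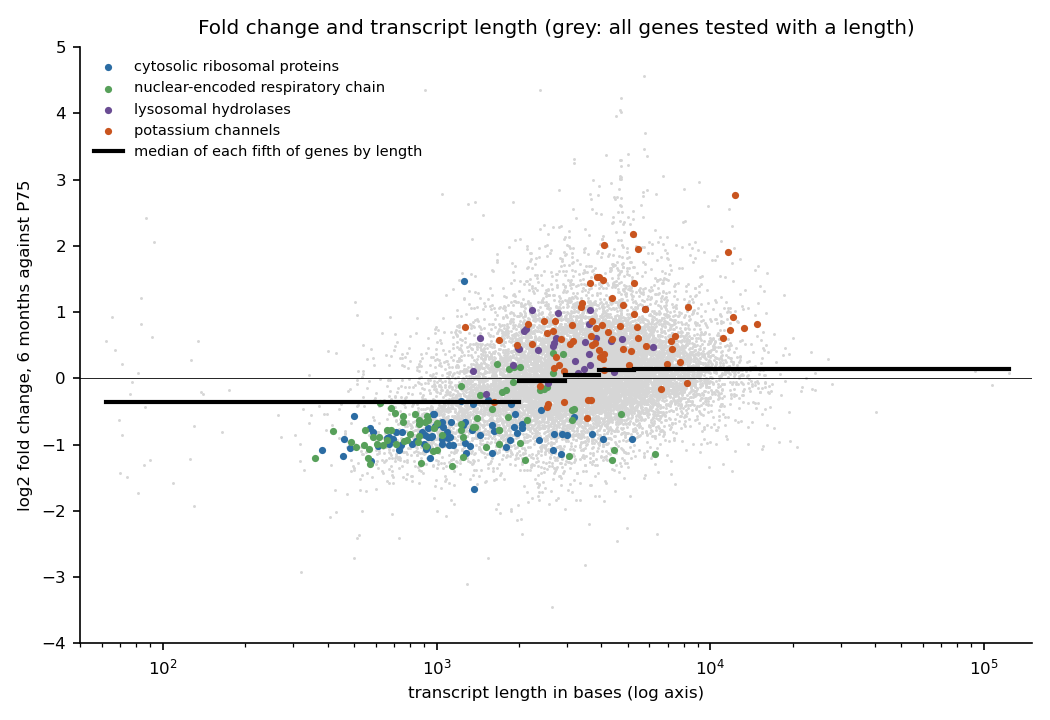
Log2 fold change at 6 months against P75 (vertical axis) against transcript length in bases (horizontal log axis) for every gene tested that has a length; coloured points are members of 4 gene lists and black bars the median of each quintile of genes by length. The bars climb from -0.355 in the shortest quintile to 0.144 in the longest, with ribosomal and respiratory chain genes mostly below the bar of their own lengths and lysosomal and potassium channel genes mostly above.

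Several lists of neuronal signalling genes had more rises than falls. Among 74 potassium channel genes tested of 92 in the table, 53 rose and 6 fell, with a median of 0.62. Kcnj3 and Kcnj9, subunits of the G protein-gated inward rectifiers, stood at 75.2, 73.2 and 78.5 at P75 and 441, 304 and 306 at 6 months and at 468, 428 and 381 at P75 and 1363, 1133 and 1208 at 6 months. They rose by 2.18 ± 0.19 (adjusted p = 2.65e-07) and by 1.53 ± 0.12 (adjusted p = 1.53e-07, limma). Kcnv1, a modifying subunit, rose by 1.21 ± 0.11 (adjusted p = 4.9e-07). The channels that sit beside the node under the myelin, Kcna1 and Kcna2, and the glial Kcnj10, all named after their values were seen, differed by 0.80, 1.91 and 0.78 (adjusted p = 2.05e-06, 1.38e-05 and 0.00226). Of 34 sodium and calcium channel genes 16 rose and 2 fell, with 5 falls without P18 replicate 3 and 7 with the length trend removed. Cacng8 and Cacng7, which escort AMPA receptors, rose by 2.66 ± 0.21 (adjusted p = 1.29e-07) and by 1.80 ± 0.19 (adjusted p = 1.81e-06), and Cacna1e, the R-type calcium channel, rose by 1.70 ± 0.19 (adjusted p = 2.85e-06). The 2 falls, named after their values were seen, were Cacnb4 (-0.53) and Scn9a (-0.34).

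At the synapse, 17 of 24 genes of vesicle release rose and 1 fell. Syt1, the calcium sensor of release, stood at 4142, 3940 and 3470 at P75 and 22040, 18320 and 18060 at 6 months and rose by 2.34 ± 0.13 (adjusted p = 7.34e-09). Sv2a, a vesicle glycoprotein, had 3043, 2938 and 2243 at P75 and 9759, 8283 and 7534 at 6 months and rose by 1.64 ± 0.13 (adjusted p = 1.47e-07). Rims1 and Napb, an active zone scaffold and a SNARE recycling factor, rose by 2.06 ± 0.22 (adjusted p = 2.19e-06) and by 1.69 ± 0.11 (adjusted p = 2.33e-08). All 4 were free of overlap. The single fall was Snap25, a SNARE protein and 1 of the 10 genes with the highest counts, at 130500, 150200 and 143600 at P75 and 87060, 88490 and 89430 at 6 months, which fell by 0.68 ± 0.17 (adjusted p = 0.0031). Among 22 dendritic and postsynaptic genes 16 rose and 1, Dlgap1 (named after its value was seen, -0.48), fell, with a median of 0.71. Shank1, a scaffold of excitatory synapses, went from 475, 342 and 217 at P75 to 2291, 1945 and 1803 at 6 months and rose by 2.61 ± 0.20 (adjusted p = 8.4e-08). Grin1, the obligatory NMDA receptor subunit, had 1931, 2081 and 1855 at P75 and 4998, 4412 and 4106 at 6 months and rose by 1.20 ± 0.14 (adjusted p = 4.76e-06). Cnksr2 and Ncald rose by 0.77 ± 0.0980 (adjusted p = 9.04e-06) and by 0.64 ± 0.0800 (adjusted p = 8.25e-06, limma).

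No gene of the guidance and adhesion list fell: 25 of 33 rose, with a median of 0.56, and with the length trend removed the counts were 17 and 1. Efna3, a membrane-bound ligand of Eph receptors, had 197, 213 and 149 at P75 and 711, 658 and 616 at 6 months and rose by 1.83 ± 0.14 (adjusted p = 8.4e-08). Sema4d, a semaphorin of oligodendrocytes, stood at 277, 195 and 182 at P75 and 794, 719.9 and 610.1 at 6 months and rose by 1.71 ± 0.15 (adjusted p = 3.36e-07). Slit1 and Unc5a, a repulsive ligand and a netrin receptor, rose by 1.31 ± 0.18 (adjusted p = 2.15e-05) and by 0.94 ± 0.12 (adjusted p = 9.19e-06). Both ligands and receptors were therefore among the rises.

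The axon cytoskeleton list gave 9 rises and 5 falls among 17 genes. Ina, an intermediate filament of axons, stood at 543, 444 and 305 at P75 and 2475, 2220 and 2084 at 6 months and rose by 2.42 ± 0.15 (adjusted p = 2.33e-08). Mtap1a and Mtap1b, microtubule-associated proteins of mature and growing axons, rose by 1.0 ± 0.12 (adjusted p = 7.73e-06) and by 0.53 ± 0.0980 (adjusted p = 0.000317), and Thy1 rose by 0.69 ± 0.13 (adjusted p = 0.000296). The falls were the growth-associated genes Gap43, Stmn1, Stmn2 and Tubb3 and the peripheral filament Prph, the first 3 and the last named after their values were seen, at -0.31, -0.59, -0.36, -0.48 and -0.73. The list of growth cone and immature neuron genes, which shares several of these, had 5 rises and 11 falls of 19, with a median of -0.34. Fabp7, a fatty acid-binding protein of radial glia, had 3589, 3541 and 4330 at P75 and 1297, 1362 and 1687 at 6 months and fell by 1.40 ± 0.24 (adjusted p = 0.000156). Marcksl1, a relative of a membrane-cytoskeleton linker, had 2258, 2270 and 2375 at P75 and 1290, 1481 and 1283 at 6 months and fell by 0.77 ± 0.0810 (adjusted p = 1.76e-06), D0H4S114 fell by 0.71 ± 0.0840 (adjusted p = 4.82e-06) and Dlx1, of newborn interneurons, fell by 0.71 ± 0.13 (adjusted p = 0.000279). The 5 rises were Tuba1a and, named after their values were seen, Dpysl3 (1.25), Sox4 (0.73), Dpysl5 (0.45) and Crmp1 (0.39). In the other 6 samples, 24 months against P18, 18 of the 19 fell and none rose.

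Tubulins fell more than they rose, 6 against 3 of 14, among them Tuba1b at 9390, 12090 and 10970 at P75 and 5880, 6724 and 6211 at 6 months, which fell by 0.78 ± 0.11 (adjusted p = 1.85e-05); without P75 replicate 2 the falls numbered 2, and with the length trend removed 3. The 3 rises were Tuba1a, given above, and Tuba4a and Tubb4, named after their values were seen (0.44 and 0.36). Of 51 kinesin and dynein genes 13 rose and 12 fell (7 among those reaching 50 in at least 6 samples). Kif5a, a neuronal kinesin and also 1 of the 10 genes with the highest counts, stood at 63500, 47370 and 38790 at P75 and 136400, 167600 and 118800 at 6 months and rose by 1.51 ± 0.21 (adjusted p = 2.33e-05). Dync1li1, a dynein light intermediate chain, rose by 1.89 ± 0.12 (adjusted p = 2e-08), and Klc2 and Kif3c rose by 0.99 ± 0.11 (adjusted p = 2.56e-06) and by 0.72 ± 0.10 (adjusted p = 2.21e-05, limma).

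Neuron markers moved with these lists, and their part in the rises was not tested. The lists share members with the markers, such as Snap25, Syt1, Thy1, Stmn2 and Tubb3, so part of this likeness is built in. Of 24 neuron markers 14 rose and 4 fell, with a median of 0.40, and no marker was at 0 in every sample. Their summed share of reads was 1.34% to 1.54% at P75 and 1.38% to 1.57% at 6 months, ranges that overlapped. Snap25, which fell and is among the genes with the highest counts, weighs heavily in this sum. The sum therefore does not show that the share of the other markers was unchanged. Slc17a7, the vesicular glutamate transporter of cortical neurons, had 6248, 6575 and 4571 at P75 and 15470, 15190 and 14950 at 6 months and rose by 1.41 ± 0.16 (adjusted p = 3.27e-06). Slc32a1, the GABA vesicle transporter, rose by 0.89 ± 0.12 (adjusted p = 2.05e-05). The 4 falls were Snap25 and Tubb3, given above, and Stmn2 and Elavl4 (-0.22), named after their values were seen. Markers of striatal neurons rose in 8 of 12 cases and fell in none, led by Drd2 at 39.1, 27.8 and 24.3 at P75 and 179.6, 139 and 105 at 6 months and Drd1a at 193, 213 and 249 at P75 and 604, 469 and 542 at 6 months, dopamine receptors that rose by 2.17 ± 0.23 (adjusted p = 1.96e-06) and by 1.30 ± 0.16 (adjusted p = 6.33e-06). Adcy5 and Rasd2 rose by 0.95 ± 0.11 (adjusted p = 3.59e-06) and by 0.74 ± 0.0860 (adjusted p = 4.23e-06). Their summed share was 0.0904% to 0.108% at P75 and 0.120% to 0.142% at 6 months, without overlap. Cerebellar markers split, 3 up and 3 down of 11. Cbln1, a synapse organiser, rose by 0.52 ± 0.10 (adjusted p = 0.000556) and Gabra6 rose by 0.43 ± 0.0970 (adjusted p = 0.00141), while Neurod1 and Zic2, transcription factors of granule cells, fell by 0.81 ± 0.0820 (adjusted p = 1.17e-06) and by 0.35 ± 0.0870 (adjusted p = 0.00299). Calb1 and En2, named after their values were seen, had 0.37 and -0.34.

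Immediate early genes, induced within minutes by neuronal activity or handling, had the highest median of any list, 0.94, with 10 rises and 2 falls of 19. Nr4a2, an orphan nuclear receptor, stood at 417, 388 and 444 at P75 and 872, 894 and 886 at 6 months and rose by 1.09 ± 0.0960 (adjusted p = 3.72e-07). Fosl2, of the Fos family, had 329.7, 333 and 340.5 at P75 and 691, 636 and 657 at 6 months and rose by 0.98 ± 0.11 (adjusted p = 3.1e-06). Nr4a3 went from 0, 2.78 and 3.32 at P75 to 72.3, 54.1 and 52.5 at 6 months, and rose by 4.56 ± 0.55 (adjusted p = 5.76e-06), which with 1 P75 sample at 0 depends on the pseudocount. The list's median difference from the P75 mean was 0.05, -0.16 and 0.07 at P75 and 0.86, 0.93 and 0.97 at 6 months, with all 3 samples at 6 months alike. Klf2 and Jund, named after their values were seen, were the falls, at -0.99 and -0.62.

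Genes of the circadian clock showed 8 rises and 2 falls of 19, and 5 falls without 24 months replicate 1 or with the length trend removed. Nfil3, a repressor of D-box genes, had 88.2, 92.7 and 53.1 at P75 and 218, 198 and 218 at 6 months and rose by 1.47 ± 0.19 (adjusted p = 1.23e-05). Cry2 and Bhlhe40, repressors of the clock loop, rose by 0.69 ± 0.0760 (adjusted p = 2.82e-06) and by 0.71 ± 0.0970 (adjusted p = 1.83e-05), while Per3 fell by 0.70 ± 0.11 (adjusted p = 7.89e-05) from 807, 763 and 786 at P75 to 448, 498 and 507 at 6 months, and Npas2, named after its value was seen, had -0.56. Of 16 genes that glucocorticoids induce, 8 fell and 3 rose. Beside Mt1 and Mt2, Tsc22d3, the glucocorticoid-induced leucine zipper, went from 4232, 5076 and 5194 at P75 to 1932, 2258 and 2278 at 6 months and fell by 1.16 ± 0.10 (adjusted p = 3.32e-07). Sgk1, Fkbp5 and Nfkbia, named after their values were seen, had -1.27, -0.50 and -1.25 (adjusted p = 0.000792, 0.0137 and 6.35e-06, limma). Klf9, induced by glucocorticoids and thyroid hormone, rose instead, from 617, 402 and 353 at P75 to 1305, 1114 and 1083 at 6 months (1.39 ± 0.16, adjusted p = 3.08e-06), as did Zbtb16 and Per1, named after their values were seen (0.77 and 0.32).

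Genes of the unfolded protein and integrated stress responses rose in 9 of 17 cases. Xbp1, a transcription factor of the endoplasmic reticulum stress response, stood at 649, 636 and 722 at P75 and 1951, 1773 and 1811 at 6 months and rose by 1.46 ± 0.18 (adjusted p = 7.49e-06). Sesn2, a stress-induced inhibitor of growth signalling, had 43.1, 30.6 and 25.4 at P75 and 169.8, 153 and 149.9 at 6 months and rose by 2.25 ± 0.17 (adjusted p = 1.25e-07). Asns and Dnajb9, an amino acid synthetase and a chaperone partner, rose by 0.57 ± 0.12 (adjusted p = 0.000885) and by 0.41 ± 0.0960 (adjusted p = 0.00178). Only Ddit3 of the list, named after its value was seen, passed downward (-0.61). Among 18 heat shock and chaperone genes 7 rose and 3 fell. The mitochondrial chaperones Hspa9 and Hspd1 rose by 0.87 ± 0.0860 (adjusted p = 9.48e-07) and by 0.59 ± 0.0980 (adjusted p = 0.000105), whereas Hspe1, the short partner of Hspd1, fell by 0.85 ± 0.10 (adjusted p = 5.16e-06) and Hspb8 fell by 0.70 ± 0.12 (adjusted p = 0.00016) (limma). Hspb1, named after its value was seen, had -0.74. Without P75 replicate 1, or without 6 months replicate 1, the rises of this list numbered 4, and without P18 replicate 3 the falls numbered 5.

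Of 30 cell cycle genes, 11 fell, 3 rose and 16 did not pass, with a median of -0.24. Cdk1, the mitotic kinase, had 36.1, 34.3 and 29.9 at P75 and 9.75, 11.5 and 16.5 at 6 months and fell by 1.36 ± 0.24 (adjusted p = 0.000192). Cenpf and Ccna2 fell by 1.29 ± 0.26 (adjusted p = 0.000541) and by 0.94 ± 0.20 (adjusted p = 0.000933). Most counts of these genes were low, and among the 13 reaching 50 in at least 6 samples 3 fell and 3 rose, with a median of 0.12. Ccnd2, a G1 cyclin, rose by 0.89 ± 0.13 (adjusted p = 4e-05) from 384, 319 and 307 at P75 to 634, 641 and 596 at 6 months, and Mcm5 and Mcm6, named after their values were seen, had 0.62 and 0.56.

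Lysosomal genes rose with none falling: 20 of 29 tested of 36 in the table passed upward, with a median of 0.48, and 21 with the length trend removed. Lamp1, a major protein of the lysosomal membrane, stood at 5016, 5171 and 5962 at P75 and 11330, 11070 and 10420 at 6 months and rose by 1.03 ± 0.11 (adjusted p = 1.7e-06). Gaa, acid glucosidase, had 2487, 2871 and 2455 at P75 and 5850, 5043 and 5104 at 6 months and rose by 1.03 ± 0.0960 (adjusted p = 5.89e-07). Asah1, acid ceramidase, had 833, 750.1 and 869 at P75 and 1750, 1588 and 1535 at 6 months and rose by 0.99 ± 0.0910 (adjusted p = 5.35e-07), and Ctsf, cathepsin F, rose by 0.71 ± 0.0800 (adjusted p = 2.94e-06). The list's median difference from the P75 mean was -0.07, 0.00 and 0.05 at P75 and 0.54, 0.46 and 0.46 at 6 months and 0.73, 0.85 and 0.98 at 24 months. Every sample at 6 months thus lay above those at P75 and below those at 24 months. In the other 6 samples, 27 of the genes rose and 1 fell from P18 to 24 months. Of 17 genes of the proton pump that acidifies lysosomes and vesicles, 7 rose and 5 fell, with 3 falls without replicate 2 or 3 of P75 or replicate 1 or 3 of 6 months. Atp6v0a1 and Atp6v0a2, membrane subunits, rose by 1.15 ± 0.12 (adjusted p = 2.2e-06) and by 1.14 ± 0.10 (adjusted p = 4.84e-07), and Atp6v0e2 rose by 0.95 ± 0.0940 (adjusted p = 1.05e-06). Atp6v1g1, a subunit of the cytosolic arm, fell by 0.82 ± 0.11 (adjusted p = 1.26e-05). The other 4 falls, named after their values were seen, were Atp6v1c2 (-0.87), Atp6v1f (-0.70), Atp6v0e (-0.29) and Atp6v1d (-0.24). Rab GTPases gave 12 rises and 18 falls of 52; Rab7, of late endosomes, rose by 1.68 ± 0.14 (adjusted p = 2.93e-07) from 684, 629 and 407 at P75 to 1908, 1821 and 1657 at 6 months, while Rab24, Rab9 and Rab4a fell by 0.86 ± 0.10 (adjusted p = 5.55e-06), by 0.83 ± 0.0980 (adjusted p = 4.99e-06) and by 0.63 ± 0.0930 (adjusted p = 3.6e-05, limma).

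**Figure D5:**
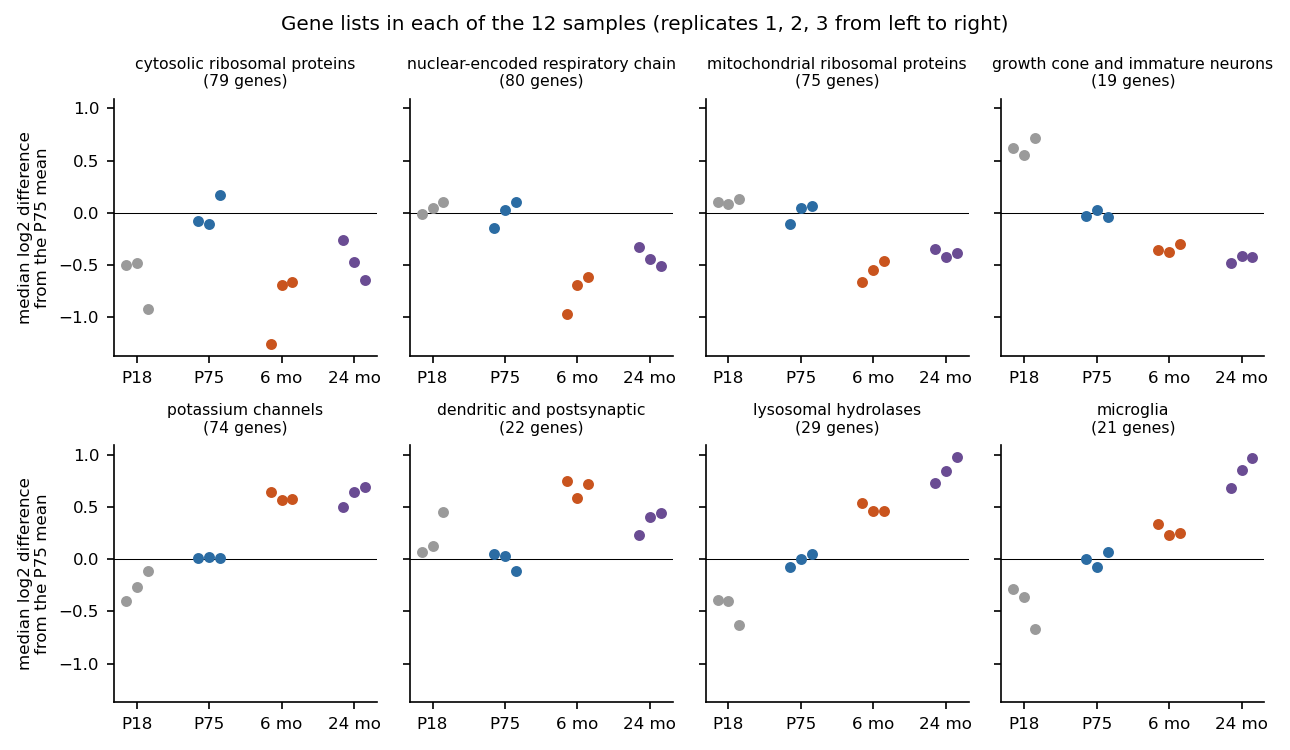
Median log2 difference from the P75 mean over the members of 8 gene lists (vertical axis), in each of the 12 samples, with replicates 1 to 3 from left to right at each age. Respiratory chain genes are lowest at 6 months, with replicate 1 at -0.97, ribosomal protein genes are below P75 at 6 months (to -1.26) and also at P18 (to -0.92), potassium channels stay up at 24 months (0.50 to 0.69), and lysosomal and microglial genes climb further by then, to 0.73 to 0.98 and 0.68 to 0.97.

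Microglial markers moved with the lysosomal list, which shares a few members with them. Of these markers 9 of 21 rose and 1 fell, and their part in the lysosomal rises was not tested. Their summed share of reads was 0.0644% to 0.0722% at P75 and 0.0755% to 0.0875% at 6 months, without overlap, and no marker was at 0 in every sample. Csf1r, the growth factor receptor of microglia, stood at 765, 751 and 780.5 at P75 and 1394, 1370 and 1198 at 6 months and rose by 0.78 ± 0.10 (adjusted p = 1.39e-05). P2ry13 and Laptm5, a purine receptor and a lysosomal membrane protein, rose by 1.06 ± 0.17 (adjusted p = 8.05e-05) and by 0.81 ± 0.14 (adjusted p = 0.000193). Aif1, a calcium-binding protein widely used to stain microglia, went the other way, from 446, 344 and 375 at P75 to 197, 172 and 197 at 6 months, and fell by 1.03 ± 0.13 (adjusted p = 1.07e-05). Of 21 genes of activated microglia 9 rose and 2 fell. Lyz2, lysozyme of macrophages, uncertain because of a near paralog, had 110.2, 92.7 and 99.5 at P75 and 286, 243 and 229 at 6 months and rose by 1.31 ± 0.17 (adjusted p = 9.7e-06). Ctsd and Ctsz, cathepsins also on or near the lysosomal list, rose by 0.75 ± 0.11 (adjusted p = 3.56e-05) and by 0.60 ± 0.0910 (adjusted p = 4.74e-05). The falls were Fabp5, at 5257, 6082 and 5821 at P75 and 2710, 3136 and 3141 at 6 months, which fell by 0.93 ± 0.0930 (adjusted p = 1.11e-06), and Lgals3, named after its value was seen (-0.75).

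The share of rises in innate immune lists was near or somewhat above that of all genes. Complement and acute phase genes gave 5 rises and 1 fall of 17. Serping1, the inhibitor of the first complement component, had 133, 116 and 128 at P75 and 297, 312 and 289 at 6 months and rose by 1.25 ± 0.12 (adjusted p = 5.65e-07). Clu and Serpina3n, an extracellular chaperone and a protease inhibitor of reactive glia, rose by 0.69 ± 0.12 (adjusted p = 0.000174) and by 0.84 ± 0.14 (adjusted p = 0.000136), C1qa, named after its value was seen, had 0.53, and Cd59a, which blocks the membrane attack complex, fell by 1.09 ± 0.14 (adjusted p = 1.27e-05) from 696, 782 and 869 at P75 to 362, 352 and 380.5 at 6 months. For class I antigen presentation 5 of 13 rose and 1 fell: H2-D1 rose by 0.74 ± 0.12 (adjusted p = 7.64e-05), with near copies that make it uncertain, Tap2 and Tapbp, of peptide loading, rose by 0.56 ± 0.14 (adjusted p = 0.00246) and by 0.47 ± 0.0970 (adjusted p = 0.000752), H2-M3 and H2-K1, named after their values were seen, had 0.47 and 0.33, and H2-Ke6, a steroid dehydrogenase by function, fell by 0.58 ± 0.11 (adjusted p = 0.000236). Of 24 interferon-response genes 7 rose and 2 fell, with 4 rises without 6 months replicate 1; the list's median difference from the P75 mean was 0.71 in that sample and 0.07 and 0.05 in the other 2 at 6 months. Lgals3bp had 159, 139 and 117 at P75 and 496, 385 and 357 at 6 months and rose by 1.57 ± 0.15 (adjusted p = 7.63e-07), and the falls were Ifi27l2a and Xaf1, named after their values were seen (-0.80 and -0.46).

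Astrocyte markers were near balance, 4 up and 2 down of 18, and Gfap, the filament of reactive astrocytes, stood at 6070, 5569 and 5547 at P75 and 5654, 7255 and 4665 at 6 months (log2 difference 0.01 ± 0.20, limma adjusted p = 0.972). Slc1a3, a glutamate transporter, had 9324, 7446 and 9179 at P75 and 16800, 14360 and 14950 at 6 months and rose by 0.83 ± 0.11 (adjusted p = 2.03e-05), Slc7a10 rose by 0.47 ± 0.12 (adjusted p = 0.00311), and Gja1 and Mlc1, named after their values were seen, had 0.34 and 0.40. Ntsr2 and Aldoc fell by 0.71 ± 0.12 (adjusted p = 9.17e-05) and by 0.50 ± 0.12 (adjusted p = 0.00216). Of endothelial markers 6 of 16 rose and 2 fell, with 4 falls without P75 replicate 1: Itm2a and Flt1 rose by 1.06 ± 0.17 (adjusted p = 9.02e-05) and by 1.15 ± 0.25 (adjusted p = 0.00108), and Ly6c1 and Slco1a4 fell by 1.01 ± 0.17 (adjusted p = 0.00014) and by 0.73 ± 0.16 (adjusted p = 0.000948). Markers of mural cells and fibroblasts gave 4 rises and 1 fall of 17. Igf2, made by the meninges, had 1168, 871 and 828 at P75 and 2011, 1882 and 1880 at 6 months and rose by 1.03 ± 0.12 (adjusted p = 5.73e-06), Vtn and Dcn rose by 0.91 ± 0.12 (adjusted p = 1.34e-05) and by 0.64 ± 0.13 (adjusted p = 0.00079), Anpep, named after its value was seen, had 1.17, and Myl9 fell by 0.72 ± 0.12 (adjusted p = 0.000112). Summed shares of endothelial markers (0.0451% to 0.0536% at P75, 0.0566% to 0.0626% at 6 months) and of mural and fibroblast markers (0.0154% to 0.0177%, 0.0229% to 0.0268%) did not overlap between the ages.

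In the choroid plexus and ependyma list 8 of 14 rose and 2 fell, with 5 rises once the length trend was removed. The rises were genes of the secretory plexus epithelium, such as Aqp1, a water channel, at 38.1, 26.0 and 39.8 at P75 and 114.5, 106 and 97.3 at 6 months, and Folr1, a folate receptor, at 56.1, 68.6 and 58.6 at P75 and 138, 126 and 137 at 6 months, which rose by 1.61 ± 0.19 (adjusted p = 4.76e-06) and by 1.12 ± 0.17 (adjusted p = 4.72e-05, limma). Both falls were genes of motile cilia, Dynlrb2, which fell by 1.69 ± 0.25 (adjusted p = 3.84e-05), and Ccdc153, which fell by 1.52 ± 0.21 (adjusted p = 2.44e-05). Of 12 olfactory markers 2 rose and 3 fell. Cdhr1 and Trh, of the bulb, rose by 1.66 ± 0.19 (adjusted p = 3.05e-06) and by 0.87 ± 0.11 (adjusted p = 6.73e-06), S100a5 is given above, Gng13 fell by 1.04 ± 0.14 (adjusted p = 1.78e-05), and Gng8, named after its value was seen, had -0.65. Collagens and laminins gave 9 rises and 9 falls of 50, among them Col25a1 (1.43, adjusted p = 0.000878) and Col12a1 (-0.91, adjusted p = 0.000115), with 4 rises without 6 months replicate 1 and 5 with the length trend removed.

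Markers of hindbrain and spinal cord, mostly Hox genes, had the lowest median of any list, -1.53, with 10 of 13 falling and none rising. Hoxb3 stood at 81.2, 100.1 and 113.9 at P75 and 29.2, 35.5 and 35.0 at 6 months and fell by 1.53 ± 0.26 (adjusted p = 0.000164). Hoxb2 had 46.1, 65.8 and 61.9 at P75 and 13, 16.9 and 21.4 at 6 months and fell by 1.71 ± 0.29 (adjusted p = 0.000156), and Hoxb4 fell by 1.89 ± 0.50 (adjusted p = 0.0045). Hoxa5 and Hoxb5, among the 12 largest falls, had 135, 189 and 192 at P75 and 28.4, 48.8 and 55.5 at 6 months and 138, 133 and 186 at P75 and 36.6, 47.9 and 43.8 at 6 months, with adjusted p of 0.0127 and 0.0258 in limma. These are low counts, together 0.00373% ± 0.000671 of the reads at P75 and 0.00125% ± 0.000146 at 6 months (SD, n = 3). P18 replicate 3 was also low beside the other 2 at that age, for Hoxa5 at 239, 155 and 17.1 over the 3 replicates. Without 6 months replicate 1 only 4 of the falls passed and without P75 replicate 3 only 5. In the first case Hoxa5 and Hoxb5 were not among those passing (limma, adjusted p up to 0.0773). Hoxb5 also missed the threshold without P75 replicate 3 (limma, adjusted p = 0.0811) and without 6 months replicate 3 (adjusted p = 0.0523). Without P18 replicate 3, which is not in this comparison, 12 of the 13 fell. In a limma fit of only P75 and 6 months all 12 largest falls, Hoxa5 and Hoxb5 among them, passed (adjusted p at most 2.68e-06). That fit uses the samples by which these genes were chosen, so it gives no further support. The labels do not describe how the brains were dissected.

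Few markers of blood could be tested. Haemoglobin genes were listed at 0 in every sample, which as for Hmgcs1 may be a failed estimate and is not read as absence of blood RNA. In all, 5 of 10 erythrocyte markers in the table could be tested, and of these 2 fell and none rose. Bpgm, also expressed in brain, fell by 0.43 ± 0.13 (adjusted p = 0.00842). Alas2, a heme synthesis enzyme of red cells, stood at 44.1, 36.2 and 43.1 at P75 and 29.2, 57.7 and 36.0 at 6 months, values that overlapped (adjusted p = 0.837). Of 12 lymphocyte markers 2 were tested, Cd4 and Ptprc, and neither passed (limma; their summed share was at most 0.000897% of reads). Among 8 Schwann cell markers Egr2, also an immediate early gene, rose by 1.62 ± 0.24 (adjusted p = 3.83e-05) without overlap and Sox10, shared with oligodendrocytes, rose by 0.34 ± 0.14 (adjusted p = 0.0461) with overlapping values; the peripheral myelin gene Pmp22 had 1310, 1272 and 1429 at P75 and 1512, 1642 and 1464 at 6 months, short of the threshold at an adjusted p of 0.332. Of 8 RNAs held in the nucleus 4 fell and none rose, a balance that rested on single samples: without P75 replicate 1 there were 1 fall and 2 rises, without 6 months replicate 1 there were 1 and 0, and without 6 months replicate 2 there were 1 and 1. Neat1, the core of nuclear paraspeckles, went from 1669, 1737 and 2209 at P75 to 843, 899 and 981 at 6 months and fell by 1.03 ± 0.16 (adjusted p = 6.37e-05), Snhg11, Mirg and Rian fell by 0.48 ± 0.17 (adjusted p = 0.0236), by 0.37 ± 0.13 (adjusted p = 0.0214) and by 0.30 ± 0.11 (adjusted p = 0.0327), and Malat1 had 2786, 2338 and 1747 at P75 and 2903, 2399 and 2633 at 6 months, with overlap (adjusted p = 0.157).

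To place 6 months among its neighbours, each gene was also tested against the mean of P75 and 24 months and 24 months was tested against 6 months. Both share samples with the comparison above, so they give values beside it and no further support. At 6 months 2872 genes (19.2%) lay above and 2983 (19.9%) below the mean of the neighbouring ages. From 6 months to 24 months 1626 genes (10.8%) rose and 1250 (8.34%) fell. This total of 2876 dropped to 1279 or 1499 without replicate 1 or 2 of 6 months and to 1527 or 1244 without replicate 1 or 2 of 24 months, and it was 5792 with sample weights. Of the cytosolic ribosomal proteins 69 lay below the mean of the neighbours and none above, and 14 rose from 6 to 24 months. Respiratory chain genes gave 64 below and 39 rising. These rises rested on single samples: without replicate 1 of 6 months, or replicate 1 or 2 of 24 months, no ribosomal protein gene rose, while 42 rose without P18 replicate 3. Respiratory chain genes rose in 3 cases without 6 months replicate 1 and in 6 and 11 without replicates 1 and 2 of 24 months. Ribosomal protein genes below the mean of the neighbours numbered 46 without 6 months replicate 1. Vesicle release genes showed the mirror image, with 17 above and 11 falling by 24 months, and dendritic genes 14 above and 8 falling; leaving out 1 sample gave 4 (without 24 months replicate 1) to 14 vesicle release genes falling and 3 (without 6 months replicate 1, or replicate 1 or 2 of 24 months) to 13 dendritic genes falling, the highest both without P18 replicate 3.

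Immune lists lay below this mean more often than above it. Of microglial markers 8 were below the mean of the neighbours at 6 months and 11 rose from 6 to 24 months with none falling. Class I antigen presentation gave 6 below and 10 rising from 6 to 24 months (6 without 24 months replicate 2), complement and acute phase genes 7 and 10, and lysosomal genes 1 below, 5 above and 12 rising. Lyz2 reached 699, 870.4 and 1099 at 24 months and H2-D1 1229, 1543 and 1404, above all samples at 6 months. Potassium channels were in between, 35 above and 7 below the mean of the neighbours, 5 rising and 9 falling by 24 months, where leaving out 6 months replicate 1 gave 1 and 1, and 2 below the mean. In the samples that share nothing with P75 and 6 months, 59 of them rose and 1 fell from P18 to 24 months, whereas vesicle release genes split, 9 up and 12 down, and cytosolic ribosomal proteins 20 up and 10 down.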

How the data were processed

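Total RNA of a myelin-enriched light membrane fraction of mouse brain was sequenced in 12 samples, 3 at each of 4 ages. The authors deposited 1 table of normalised read counts, a signal scaled per library, and the submitters' processing notes name TopHat, HTSeq, DESeq and the build mm9, with no versions; the extraction and library protocols are not given in the sources used here. Each library's values were whole multiples of 1 step (tolerance 0.0061), so reads and depth could be recovered. The table has 21937 genes, every column was mapped to a sample by its name, and 0 columns were left unused. Depth was 20299052 to 27214385 reads per sample, and replicates of an age differed by more than counting noise (chi-square per degree of freedom 9.17 to 131.2).

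Genes with a value of 10 or more in 3 or more samples were tested with limma 3.58.1 in R 4.3.3 on log2(value + 1), with the trend of the spread on level, all 12 samples in 4 age groups and no other term. A fold change on this scale understates changes of low genes. Genes with an adjusted p under 0.05 are said to rise or fall. The fit was run on simulated counts with known changes in a small part of the genes and the same dispersion for every gene and sample. The real data differ from this setting in both, so the simulation does not give their error rate. The 6 samples were grouped by labelled age, and 53 lists of genes and cell markers, together with the comparison itself, were chosen with earlier results of these data known. Named genes are the 12 largest rises and 12 largest falls (mean value at least 50, no overlap, no unnamed transcripts or pseudogenes), the 4 members with the smallest adjusted p in each list, 12 fixed genes, the 10 with the highest values and 5 sex-linked genes; others are said to have been named after their values were seen. A few genes named by the rule or by their place in a list are not reported here, though counts and medians include them. Lists are described by counts and medians and no set test was run. Alternatives were edgeR 4.0.16 and DESeq2 1.42.0 on the recovered reads, pseudocounts of 0.5 and 10, no filter and a stricter one (50 in at least 6 samples), quantile normalization, median centring, removal of a loess trend (span 0.5) on transcript length or GC content, a fit of only the ages compared, sample weights, a replicate block and leaving out each sample. Transcript lengths came from a GRCm38 annotation matched by symbol to 14832 of the genes tested, and no coordinates were carried from one build to the other. Promoter windows are those of RefSeq on GRCm38.p6.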

Additional observations from a re-analysis of the deposited data

How the results depend on the processing

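Over the alternatives that change the tool, the scaling, the filter or the pseudocount, the number of genes changed between P75 and 6 months stayed within 1.5 times 7859, for example 4133 up and 3823 down with edgeR, 4003 and 3777 with DESeq2, 3827 and 4106 after quantile normalization, and 3467 and 4008 with the length trend removed. Asking for a change of at least 1 on the log2 scale as well left 1422 (802 up, 620 down), and 2824 of 9367 for 24 months against P18, 513 of 5855 for 6 months against the mean of its neighbours and 245 of 2876 for 24 months against 6 months. Leaving out 1 sample gave 6576 (without 6 months replicate 1) to 8520 (without P18 replicate 3) genes, 3411 to 4375 up and 3165 to 4145 down. The same step gave 8505 to 9429 for 24 months against P18, 4026 to 6737 for 6 months against its neighbours and 1244 to 3963 for 24 months against 6 months, where leaving out replicate 1 or 2 of 6 months gave 1279 and 1499, leaving out replicate 1 or 2 of 24 months gave 1527 and 1244, and sample weights gave 5792; the cause was not tested.

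Samples with the same number at P75 and 6 months deviated together only weakly (r = 0.147, 0.093 and 0.165), so the numbers were not taken to pair them; with the replicate block 7656 genes changed, 3960 up and 3696 down. For the 288 genes named with a test, 6955 values over the alternatives kept their sign and their call. Another 192 lost the call, 22 gained one and 16 changed sign. Of the log2 differences of single genes, only ones that had not passed changed sign. Gfap went to -0.01, -0.02, 0.00 and -0.06 with quantile normalization, median centring, the length trend and the GC trend removed, and ranged from -0.16 to 0.16 when 1 sample was left out, below 0 without P75 replicate 2, P75 replicate 3 or 6 months replicate 2. With 1 sample left out Mbp ranged from -0.11 to 0.34, Fth1 from -0.08 to 0.37, Alas2 from -0.33 to 0.15 and Cd4 from -0.01 to 0.21. Beside these, Mbp went to -0.02 and Alas2 to 0.03 with the length trend removed, Alas2 to 0.02 with sample weights and Fth1 to 0.00 with quantile normalization. Counting error is largest for genes with few reads, such as the Hox and cell cycle genes, and its part in their calls was not tested. On the recovered reads all 12 largest falls, Hoxa5 and Hoxb5 among them, passed with edgeR (adjusted p up to 0.0074) and DESeq2 (up to 0.024). These fits use the samples by which the genes were chosen. Hoxb5 did not pass in limma when some single samples were left out, as given above.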
